A study of Mus musculus with 11 samples.

Results

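The smooth muscle contractile apparatus of mouse mammary epithelium was examined through 33 genes, listed by symbol and matched by Entrez identifier, out of 27179 identifiers counted in 11 bulk RNA-seq libraries. The list holds smooth muscle actins and myosin, the enzymes that act on the myosin light chain, thin filament proteins, linkers to the membrane, the oxytocin receptor, the peptidase Mme, and the transcription factor Srf with its cofactor Myocd. All 33 genes were found and all 33 were among the 17370 genes tested. The libraries were made from sorted mammary epithelial cells of C57BL/6 mice aged 5 weeks, during puberty, when terminal end buds (TEBs) lead the growth of the ducts. All groups carried the E-cadherin-GFP reporter, by which TEBs and ducts were microdissected and bright luminal cells were sorted from dim basal cells, after a gate on CD29 and CD24 that left out lineage-positive cells, with CD31, CD45 and TER-119 among the antibodies of the study. The groups were basal cells of ducts (3 libraries), basal cells of TEBs (3), luminal cells of ducts (2) and luminal cells of TEBs (3). They received no treatment, and each library pooled at least 2 mice.

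Basal mammary cells of the mature gland are myoepithelial cells, which lie on the basement membrane and squeeze milk from the alveoli and along the ducts. Oxytocin binds its receptor on these cells and raises cytosolic calcium, and calmodulin then switches on myosin light chain kinase. The phosphorylated myosin pulls on smooth muscle actin filaments, which are tuned by calponin, caldesmon and tropomyosin and are tied to integrins by linkers such as vinculin and filamin. Genes of this kind are switched on in smooth muscle by serum response factor (Srf), which binds the CArG box, and its cofactors.

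Library totals were 37.2 to 49.2 M counts in basal duct, 28.0 to 40.9 M in basal TEB, 29.5 to 43.0 M in luminal duct and 37.7 to 43.1 M in luminal TEB. Basal TEB replicate 1 and luminal duct replicate 3 stood apart, with 37.5% and 28.5% of counts on the mitochondrial chromosome, against 4.34% to 17.8% in the other 9 libraries. Levels are counts-per-million (CPM) after TMM scaling, and changes are log2 fold changes with their standard error from edgeR's quasi-likelihood test, called at a Benjamini-Hochberg adjusted p (FDR) below 0.05. The labelled cell types were checked against markers. The summed level of 4 basal markers (Krt5, Krt14, Krt17 and Trp63) was 1227 to 6972 CPM in basal libraries and 6.32 to 71.0 CPM in luminal ones, and that of 6 luminal markers was 443 to 703 CPM and 11230 to 16780 CPM. In bulk samples, fewer cells of a type and less RNA per cell cannot be told apart.

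The 33 genes together held 29150 to 34660 CPM in the basal duct libraries and 14530 to 19280 CPM in the basal TEB libraries. In luminal cells they held 2050 to 2436 CPM in ducts and 2305 to 2567 CPM in TEBs. The summed level was thus lower in each basal TEB library than in any basal duct library, and the luminal ranges of the structures overlapped. Per length (RPKM, CPM per kilobase), Acta2 was the most abundant of the 33 genes in basal cells, with a mean of 3648 ± 291.5 RPKM in ducts and 2085 ± 494.5 RPKM in TEBs (SD over 3 libraries each). In basal ducts it was followed by Tagln (1955 ± 332 RPKM), Csrp1 (998 ± 102 RPKM) and Myl9 (954.5 ± 146 RPKM), and the last pair did not differ beyond their spread. In basal TEBs, Myl9 (651 ± 98.5 RPKM) and Tagln (649 ± 160.5 RPKM) came next and likewise did not differ beyond their spread. In luminal cells the leading genes were Csrp1 and Myl6 in both structures, a LIM-domain linker and a myosin light chain shared with non-muscle myosin, at 231 ± 35.4 and 237 ± 39.9 RPKM in ducts (SD, n = 2).

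**Figure D1:**
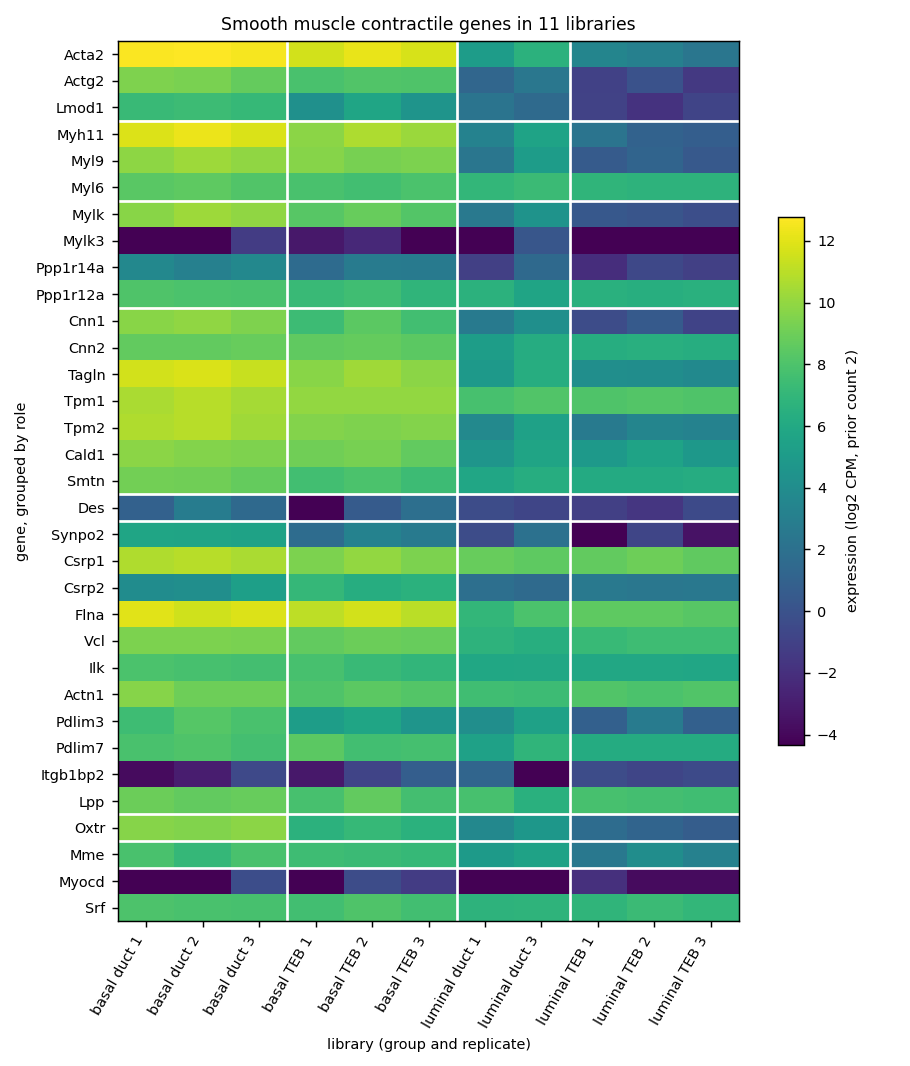
Expression of the 33 contractile genes (rows, grouped by role and separated by white lines) in the 11 libraries (columns, with lines between groups), as colour on a log2 CPM scale with a prior count of 2. Acta2 is bright in the 6 basal libraries (3066 to 7030 CPM) and dim in luminal TEB (5.14 to 10.8 CPM), while Myocd, Mylk3 and Itgb1bp2 are dark throughout.

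Between TEBs and ducts, 7 of the 33 genes fell in basal TEBs and 1 rose, where 1.16% and 0.167% of all genes tested were called lower and higher. The genes that fell were Oxtr, Lmod1, Pdlim3, Tagln, Smtn, Csrp1 and Actn1, and the gene that rose was Csrp2. The log2 fold change was negative for 29 of 33 genes, with a median of -0.75 against -0.03 over all genes tested. For 21 genes each basal TEB library lay below each basal duct library, which held for 11.9% of all genes tested, and for 1 gene (Csrp2) each lay above, as for 8.88% of all genes tested. The remaining 25 genes, Acta2 and Myh11 among them, did not pass the test.

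The receptor that starts contraction had the largest decrease of the 7 genes that fell. Oxtr (Entrez 18430, chr6:112473683-112491035 in mm10), the oxytocin receptor, had 832, 756.5 and 893 CPM in basal ducts and 101, 138 and 95.9 CPM in basal TEBs. The 2 groups were far apart, and the lowest duct library had over 5 times the level of the highest TEB library. The log2 fold change was -2.89 ± 0.32 (FDR = 0.00175, edgeR), a 7.41-fold lower level in TEBs. Within each basal library, Oxtr held 10.8 to 14.9 counts per 100 Acta2 counts in ducts and 2.86 to 3.29 in TEBs, a ratio free of library scaling that was chosen after the values were seen. The call held when any of the 11 libraries was left out.

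Of the actin filament genes, Lmod1 fell. Lmod1 (Entrez 93689, chr1:135324813-135368065), leiomodin, which nucleates actin filaments in smooth muscle, had 153, 171 and 140 CPM in basal ducts and 18.9, 52.0 and 22.9 CPM in basal TEBs. Its groups did not overlap, and TEB replicate 2 was the highest of the TEB libraries. The change was -2.31 ± 0.38 (FDR = 0.0129, edgeR), and the call was kept in 8 of 11 fits with 1 library left out, being lost without basal duct replicate 1, basal duct replicate 2 or basal TEB replicate 3. Acta2 (Entrez 11475, chr19:34240336-34255585), smooth muscle α-actin, had 6456, 7030 and 5993 CPM in ducts and 3066, 4713 and 3353 CPM in TEBs. Its groups did not overlap either, but the change of -0.81 ± 0.39 did not pass the test (FDR = 0.368, edgeR). Actg2 (Entrez 11468, chr6:83512909-83536251), smooth muscle γ-actin, had 708, 636 and 419 CPM in ducts and 236, 285.5 and 262 CPM in TEBs, a change of -1.17 ± 0.34 (FDR = 0.143). Acta2 made up 90.1% to 94.3% of the counts of the 2 actins in the 6 basal libraries, a ratio chosen after the values were seen.

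None of the 7 myosin motor and light chain enzyme genes passed the test in basal cells, although edgeR's test gave unadjusted p = 0.00632 for Myh11, 0.0073 for Myl6, 0.00192 for Mylk and 0.0103 for Ppp1r12a. Myh11 and Mylk were called lower by DESeq2 and by limma voom, and Myl6 by DESeq2. Myh11 (Entrez 17880, chr16:14194527-14292188), the smooth muscle myosin heavy chain, had 3843, 4932 and 3614 CPM in ducts and 890, 1639 and 1178 CPM in TEBs. The ranges were separate, with a change of -1.74 ± 0.53 (FDR = 0.157, edgeR). Mylk (Entrez 107589, chr16:34745199-35002436), myosin light chain kinase, had 865, 1243 and 974 CPM in ducts and 329, 455 and 297 CPM in TEBs, with a change of -1.51 ± 0.38 (FDR = 0.0906). Myl9 (Entrez 98932, chr2:156775408-156781657), the regulatory light chain that Mylk phosphorylates, had 925, 1215 and 961 CPM in ducts and 824, 618 and 672 CPM in TEBs. The values of Myl9 were the closest of these genes between structures, with a change of -0.55 ± 0.48 (FDR = 0.655). Myl6, Ppp1r12a, the targeting subunit of myosin phosphatase, and Ppp1r14a, its inhibitor, had changes between -1.05 and -0.57, and Mylk3, a kinase of cardiac muscle, was below 0.36 CPM in every basal library.

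Among 7 genes of the thin filament, Tagln and Smtn fell and the others did not pass. Tagln (Entrez 21345, chr9:45929628-45936058), transgelin or SM22, had 3174, 3585 and 2541 CPM in basal ducts and 860, 1322 and 904 CPM in basal TEBs. The change was -1.59 ± 0.34 (FDR = 0.047, edgeR), near the threshold, and 3 of 11 fits with 1 library left out kept the call. Of the 80-base stretches of its annotated transcripts, 52.3% were shared with Pcsk7 or Gm48529, so reads could be split between them. The highest count in any library was 3175 for Pcsk7 and 159121 for Tagln. Luminal counts of Tagln were far lower, with 3277 in the duct libraries together and 2374 in the TEB libraries, so the same limit weighs more there. Smtn (Entrez 29856, chr11:3517522-3539292), smoothelin, an actin-binding protein of contractile smooth muscle, had 552, 539 and 417 CPM in ducts and 194, 242 and 166 CPM in TEBs. It changed by -1.33 ± 0.20 (FDR = 0.00821), and the call was lost only without basal TEB replicate 3. Cnn1 (Entrez 12797, chr9:22099221-22109221), calponin 1, had 868, 998 and 709 CPM in ducts and 166.5, 359 and 193 CPM in TEBs. Every TEB library of Cnn1 lay below the ducts, at a change of -1.84 ± 0.42 that stayed above the threshold (FDR = 0.0618).

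Tpm2 (Entrez 22004, chr4:43513726-43523583), a tropomyosin, had 1739, 1972 and 1307 CPM in basal ducts and 764, 703 and 786 CPM in basal TEBs, with a change of -1.16 ± 0.36 (FDR = 0.172, edgeR). Cald1 (Entrez 109624, chr6:34598495-34775469), caldesmon, had 903, 795 and 712.5 CPM in ducts and 544.5, 614 and 410 CPM in TEBs, with a change of -0.62 ± 0.29 (FDR = 0.36). In both genes the TEB libraries lay below the duct libraries. Tpm1 changed by -0.68 (FDR = 0.113), and the calponin of many cell types, Cnn2, lay at 402 to 437 CPM in ducts and 350 to 435 CPM in TEBs, ranges that overlapped.

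The linker genes moved in both directions. Csrp1 and Csrp2 encode related proteins with a pair of LIM domains that bind α-actinin on actin filaments. Csrp1 (Entrez 13007, chr1:135720063-135752229) had 1749, 1956 and 1595 CPM in basal ducts and 681, 1020 and 681 CPM in basal TEBs, a change of -1.15 ± 0.22 (FDR = 0.0302, edgeR). Csrp2 (Entrez 13008, chr10:110920176-110939514) had 15.5, 17.1 and 40.4 CPM in ducts and 133, 78.7 and 97.4 CPM in TEBs. Csrp2 was thus higher in each TEB library than in any duct library, by 2.08 ± 0.36 on the log2 scale (FDR = 0.0165). The ratio of Csrp2 to Csrp1, chosen after the values were seen, was 0.885, 0.875 and 2.53 Csrp2 counts per 100 Csrp1 counts in ducts and 19.5, 7.71 and 14.3 in TEBs. No 80-base stretch of either gene's transcripts was shared with another gene. The call was kept in 4 of 11 fits with 1 library left out for Csrp1 and in 7 of 11 for Csrp2.

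Pdlim3 (Entrez 53318, chr8:45885487-45919635), a PDZ and LIM protein that binds α-actinin, had 180, 307 and 230.5 CPM in basal ducts and 35.8, 52.3 and 24.0 CPM in basal TEBs, a change of -2.68 ± 0.54 (FDR = 0.0363, edgeR). Actn1 (Entrez 109711, chr12:80167542-80260420), α-actinin 1 itself, had 820, 503 and 524 CPM in ducts and 274, 354 and 291 CPM in TEBs, a change of -1.01 ± 0.21 (FDR = 0.0398). Neither gene's ranges overlapped, and the call was kept in 6 of 11 fits with 1 library left out for Pdlim3 and in 5 of 11 for Actn1. Vcl (Entrez 22330, chr14:20929383-21033676), vinculin, had 686, 670 and 644 CPM in ducts and 401, 488 and 440 CPM in TEBs, with a change of -0.59 ± 0.16 (FDR = 0.118). Synpo2 lay at 46.2 to 51.7 CPM in ducts and 3.29 to 9.66 CPM in TEBs, the largest fitted decrease, yet with a wide error (-2.92 ± 0.94, FDR = 0.184). Flna, Ilk, Lpp and Pdlim7 overlapped between the groups, with changes between -0.66 and 0.13. Itgb1bp2, a chaperone of striated muscle, was at most 1.68 CPM in basal cells.

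Mme, the surface peptidase also known as CD10 (Entrez 17380, chr3:63295211-63383713), had 236, 131 and 234.5 CPM in basal ducts and 175, 164 and 137 CPM in basal TEBs, which overlapped (-0.34 ± 0.35, FDR = 0.71, edgeR). Des (Entrez 13346, chr1:75360292-75368579), desmin, the intermediate filament protein of muscle, was scarce. It had 1.88, 7.05 and 2.85 CPM in basal ducts and 0, 1.43 and 3.78 CPM in basal TEBs, and the 0 allows up to 0.173 CPM (3 counts, counting error only). Its change of -1.17 ± 1.42 did not pass (FDR = 0.765).

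**Figure D2:**
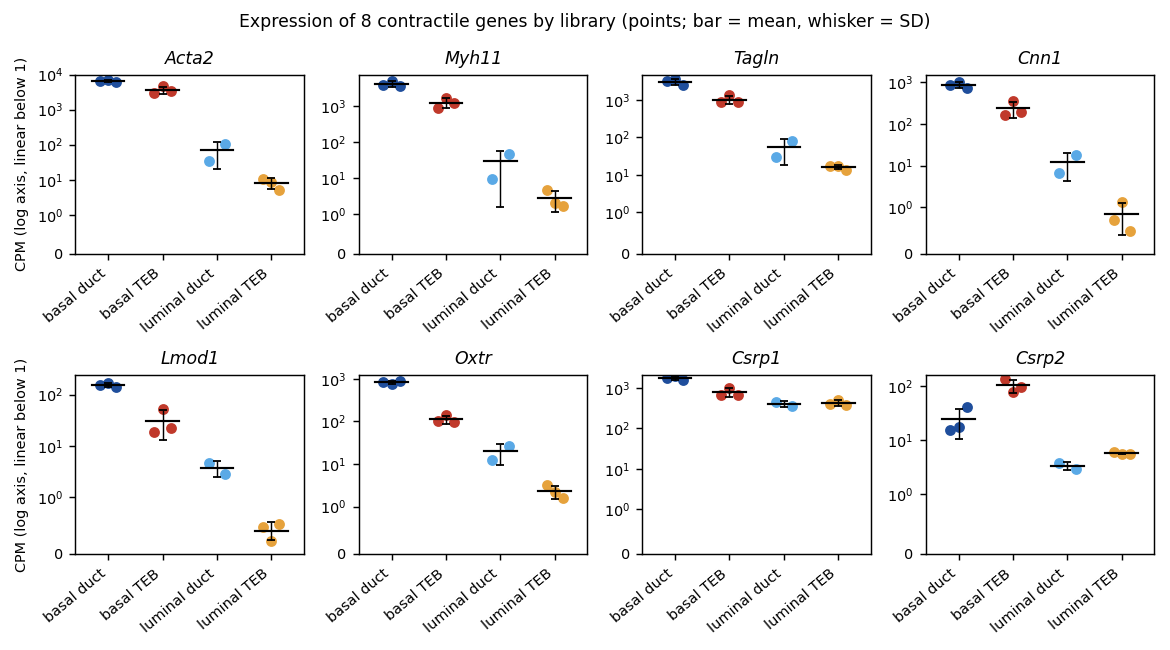
CPM of 8 contractile genes in every library (points, on a log axis that is linear below 1 CPM), with the group mean (bar) and SD (whisker, n = 3, or 2 in luminal duct). Oxtr drops from 756.5 to 893 CPM in basal ducts to 95.9 to 138 CPM in basal TEBs, and Csrp2 is the gene plotted that is higher in basal TEBs.

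The mRNA of Srf, which switches on such genes in smooth muscle, differed little between basal ducts and basal TEBs. Srf (Entrez 20807, chr17:46546838-46558267) had 254, 237 and 220 CPM in basal ducts and 193, 269 and 195.5 CPM in basal TEBs, ranges that overlapped, with a change of -0.11 ± 0.18 (FDR = 0.834, edgeR). Myocd (Entrez 214384, chr11:65173608-65269989), myocardin, the muscle-restricted cofactor of Srf, had 0, 0 and 0.77 CPM in basal ducts and 0, 0.72 and 0.36 CPM in basal TEBs. In luminal cells it had 0 CPM in both duct libraries and 0.20, 0.02 and 0.02 CPM in TEBs. The highest count of Myocd in a library was 34, while Acta2 reached 323618. A library with 0 counts allows up to 0.0598 to 0.173 CPM in these basal libraries. Of 18 further regulators listed (Srf cofactors, TEAD factors and relatives), 0 passed the test in either direction in basal cells, and their median change was -0.29. At an unadjusted p below 0.05, 3 were lower and 0 higher, and DESeq2 and limma voom each called 2 lower.

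The CArG box, the site read by Srf, was sought on both strands in RefSeq promoters (GRCm38.p6, from 250 bases before to 50 after each start). Of the 33 genes, 27 had a promoter in that table, and 6 (Actg2, Myh11, Tagln, Csrp2, Itgb1bp2 and Myocd) had none. The box was present for 5 of the 27 genes (18.5%), against 1.63% of all 32851 promoters and 1.81% of the 27025 genes they belong to. The genes were Cnn2, Myl6, Myl9, Srf and Vcl. With at most 1 changed base in the core, Acta2, Lpp and Pdlim3 were added, giving 29.6% of the genes against 11.3% of all genes. The MCAT box of TEAD factors (CATTCCT, both strands) was present for Acta2, Mme, Mylk3 and Tpm1, 14.8% of the genes against 6.15% of all genes. The 4 sequences below are shown as examples of an exact box upstream of the start, in capitals, and that of Srf holds the box for its own factor at 2 places, while Myl6, which is not shown, holds one 50 bases before its start. They are Myl9 (chr2:156775273-156775342, plus strand), Cnn2 (chr10:79988514-79988583, plus strand), Vcl (chr14:20929148-20929210, plus strand) and Srf (chr17:46556185-46556274, minus strand).
Myl9: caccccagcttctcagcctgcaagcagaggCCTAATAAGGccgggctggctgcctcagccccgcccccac
Cnn2: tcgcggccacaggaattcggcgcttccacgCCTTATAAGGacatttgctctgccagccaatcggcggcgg
Vcl: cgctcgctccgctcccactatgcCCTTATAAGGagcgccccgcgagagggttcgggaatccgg
Srf: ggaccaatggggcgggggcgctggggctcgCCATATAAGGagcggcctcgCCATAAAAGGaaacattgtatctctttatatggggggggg
The box begins 161 bases before the start in Myl9, 56 in Cnn2, 227 in Vcl, and 82 and 62 in Srf. Cnn2 and Vcl carry the same box, and the boxes of Myl9 and Srf differ from it. In basal TEBs the 5 genes with an exact box had changes from -0.59 to -0.09, none of which passed the test of edgeR (DESeq2 called Myl6 and Vcl lower, and limma voom Vcl). None of the 6 called genes with a promoter entry held an exact box, and Pdlim3 held one with a changed core base. With the box in 1.81% of all genes, 6 genes are too few for this count to be informative. The part of Srf in the changes was not tested.

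Beside the changes in basal cells stood those of other lists, chosen with earlier results of these data known. The keratins Krt5, Krt14 and Krt17 fell in basal TEBs, by 2.30, 2.87 and 1.96 on the log2 scale (FDR = 0.0249, 0.00766 and 0.0201), and the 4 basal markers summed to 5050 to 6972 CPM in ducts and 1227 to 1805 CPM in TEBs. The luminal markers summed to 613 to 703 CPM in basal ducts and 443 to 459 CPM in basal TEBs, and 1 of 6, Krt18, fell (-1.98 ± 0.23, FDR = 0.00197, edgeR), with 4 called lower by DESeq2 and 1 by limma voom. Pericyte and vascular smooth muscle markers, which share Acta2 and Myh11 with basal cells, summed to 147 to 189 CPM in basal ducts and 120 to 196 CPM in basal TEBs. Most of this was Mcam (115 to 181 CPM), whereas Rergl and Higd1b were at 0 and Rgs5 was at 0 to 2.81 CPM in every basal library. Other members were higher in basal than luminal cells, Cspg4 among them. In ducts 3 of 9 markers tested were higher and 1 lower, and in TEBs 2 and 1. Of 17370 genes tested, 2191 were higher and 1687 lower in ducts, and 2298 and 2056 in TEBs. Between basal TEBs and basal ducts, 0 of the 9 passed with edgeR, DESeq2 or limma voom, with 1 lower at an unadjusted p below 0.05. Fibroblast markers summed to 432 to 857 CPM and 227 to 414 CPM, with 0 of 8 called by edgeR (0 at an unadjusted p below 0.05, 0 by DESeq2 and 1 by limma voom). Changes were negative for 8 of 9 pericyte, 8 of 8 fibroblast and 6 of 6 endothelial markers tested, with medians of -1.2, -0.97 and -2.36. Basal duct replicate 2 held the highest basal sums of fibroblast (857 CPM), endothelial (203 CPM), adipocyte (185 CPM), immune (83.9 CPM) and skeletal muscle markers (48.85 CPM). Acta2 and Myh11 were also highest in that library. One of 10 cell cycle genes, Birc5, rose by 1.48 ± 0.31 (FDR = 0.0415), 10 of 10 had positive changes, and DESeq2 and limma voom each called 4 higher. The part of these in the contractile changes was not tested.

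Neighbouring parts of the pathway were also tested in basal cells. Itgb4, an integrin of hemidesmosomes, was the one called of 23 focal adhesion and integrin genes by edgeR (-1.24 ± 0.22, FDR = 0.0213), where DESeq2 called 2 lower and limma voom 4, and 7 were lower at an unadjusted p below 0.05. Hspb1, a small heat shock protein that binds actin, was the one called of 21 further smooth muscle genes by edgeR (-1.54 ± 0.18, FDR = 0.00225), where DESeq2 called 4 lower and limma voom 5. No gene passed among 15 non-muscle actin and myosin genes, whose median change was -0.13, or among 17 genes of oxytocin receptor calcium signalling, whose median was 0.09. At an unadjusted p below 0.05 these held 2 lower genes, and 4 lower and 2 higher, and DESeq2 called 2 lower in each while limma voom called 1 in each. The decrease of Oxtr thus stood beside no change called by edgeR in the listed calcium signalling genes.

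The number of basal calls rested on the libraries included. Genes called lower numbered 2 without basal duct replicate 1, 3 without basal duct replicate 2, 3 without basal TEB replicate 1, 1 without basal TEB replicate 3, 4 without any of the luminal TEB libraries in turn, and 11 without either luminal duct library. Without both libraries of high mitochondrial share, 5 genes were called lower (Lmod1, Mylk, Oxtr, Smtn and Tagln) and Csrp2 was called higher. Under DESeq2 and under limma voom, 16 genes were called lower, among them Myh11, Mylk, Cnn1, Actg2 and Tpm2, and all 7 of the edgeR calls were included. These tools also called more of all genes lower. DESeq2 called 648 of 14195 tested and limma voom 414 of 17370, against 201 of 17370 by edgeR. Their counts for the other lists above stand beside the same shares.

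In luminal cells, 11 of the 33 genes fell in TEBs and 0 rose, where 0.771% and 0.639% of all genes tested were called lower and higher. At an unadjusted p below 0.05, 3 genes were higher, and Vcl was called higher by limma voom while Flna and Vcl were by DESeq2. Over all genes tested, limma voom called 129 of 17370 higher and DESeq2 534 of 14819. The genes that fell were Acta2, Actg2, Lmod1, Myh11, Myl9, Mylk, Cnn1, Tagln, Oxtr, Pdlim3 and Mme. For 14 genes each luminal TEB library lay below both luminal duct libraries, which held for 17.4% of all genes tested, and for 7 genes each lay above, as for 26.2% of all genes tested. The median change was -0.47 over the 33 genes and 0.04 over all genes.

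Acta2 had 34.6 and 103 CPM in luminal ducts and 10.8, 8.67 and 5.14 CPM in luminal TEBs, a change of -3.07 ± 0.44 (FDR = 0.0104, edgeR). Actg2 had 2.48 and 5.51 CPM in ducts and 0.45, 0.93 and 0.31 CPM in TEBs, and Lmod1 had 4.67 and 2.88 CPM in ducts and 0.47, 0.23 and 0.52 CPM in TEBs. The 5 largest decreases among genes called were those of Cnn1 (-3.84 ± 0.51, FDR = 0.00844), Mylk (-3.73 ± 0.46, FDR = 0.00573), Myl9 (-3.60 ± 0.58, FDR = 0.015), Myh11 (-3.36 ± 0.60, FDR = 0.0226) and Lmod1 (-3.22 ± 0.47, FDR = 0.0104). Without luminal duct replicate 3 these changes were -2.95, -2.51, -1.63, -1.77 and -3.52, and that of Myh11 did not pass (FDR = 0.135). Cnn1 had 6.60 and 18.1 CPM in ducts and 0.72, 1.35 and 0.48 CPM in TEBs. Mylk had 5.96 and 22.1 CPM in ducts and 1.28, 1.07 and 0.81 CPM in TEBs. In Acta2, Actg2, Cnn1 and Mylk duct replicate 3 was the highest luminal library, duct replicate 1 came below it and the TEB libraries were lowest, whereas in Lmod1 duct replicate 1 was the highest.

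Myl9 had 5.10 and 35.3 CPM in luminal ducts and 1.44, 2.21 and 1.29 CPM in luminal TEBs, and Myh11 had 9.44 and 47.4 CPM in ducts and 4.64, 2.00 and 1.68 CPM in TEBs. Oxtr had 12.4 and 26.9 CPM in ducts and 3.16, 2.21 and 1.56 CPM in TEBs, a change of -3.09 ± 0.35 (FDR = 0.00414, edgeR). Pdlim3 had 17.1 and 44.3 CPM in ducts and 1.79, 6.90 and 1.85 CPM in TEBs, Mme had 31.4 and 46.5 CPM and 5.65, 16.4 and 8.90 CPM, and Tagln had 29.3 and 81.8 CPM and 17.6, 16.7 and 13.8 CPM. In each of these genes the duct libraries were above the TEB libraries. Tpm2, with 13.2 and 43.8 CPM in ducts and 6.48, 10.9 and 9.53 CPM in TEBs, did not pass (-1.66 ± 0.40, FDR = 0.067).

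The remaining 22 genes did not pass the test in luminal cells. Myocd, Mylk3, Itgb1bp2, Des, Ppp1r14a and Synpo2 were scarce there, with at most 4.03 CPM in a luminal library. Csrp1 had 453 and 364 CPM in luminal ducts and 399, 515 and 380 CPM in luminal TEBs, and Smtn had 54.6 and 80.7 CPM and 71.4, 69.3 and 74.9 CPM, both with overlapping ranges. Cald1 had 24.2 and 51.3 CPM in ducts and 29.9, 48.6 and 28.2 CPM in TEBs, which also overlapped. Actn1 had 181 and 165 CPM in ducts and 276, 246 and 283.5 CPM in TEBs, Csrp2 had 3.78 and 2.96 CPM and 5.90, 5.45 and 5.57 CPM, and Srf had 108 and 111 CPM and 119, 159 and 130 CPM. In these last 3 genes each TEB library was above the ducts, with changes of 0.64 (FDR = 0.204), 0.74 (FDR = 0.378) and 0.31 (FDR = 0.444).

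**Figure D3:**
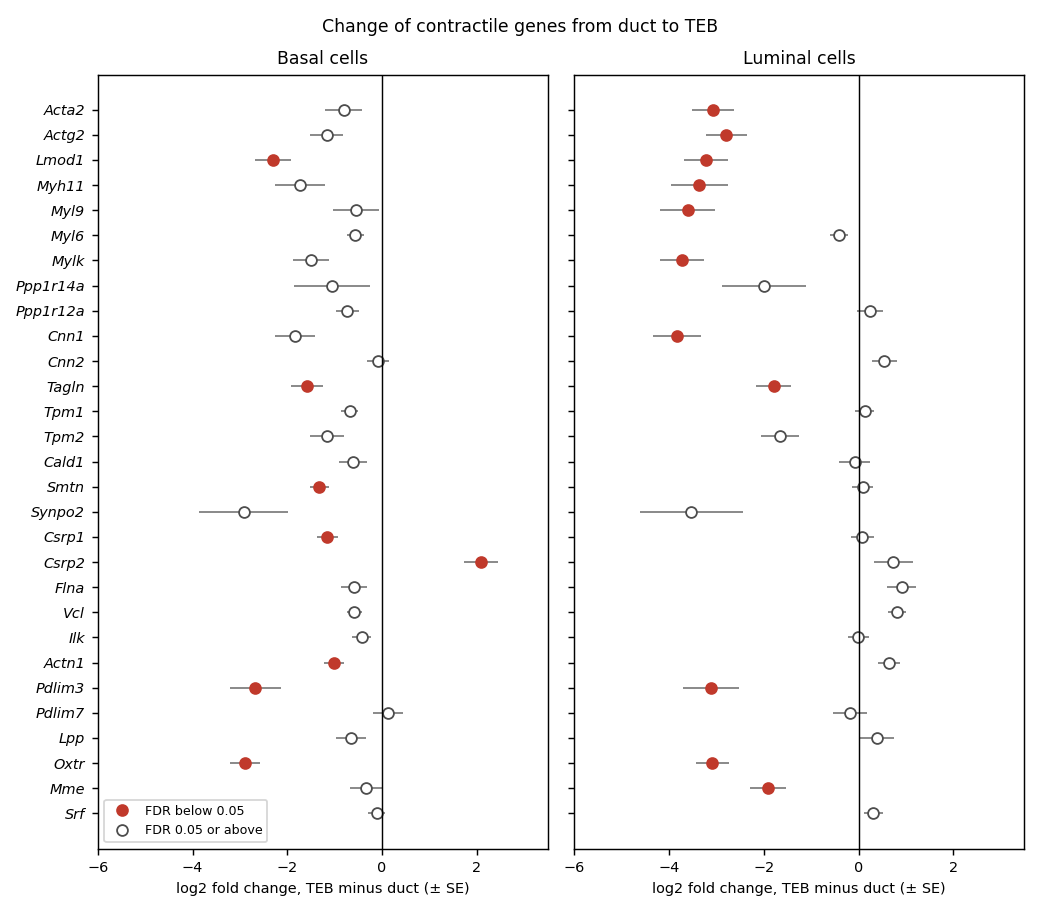
Log2 fold change of TEB against duct (± SE) in basal cells (left) and luminal cells (right) for 29 contractile genes, with filled points at an FDR below 0.05 and open points above it. The 4 genes at the lowest levels (Myocd, Mylk3, Itgb1bp2 and Des) are not drawn. Filled points on the left are 7 decreases and the increase of Csrp2, and on the right 11 decreases.

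Basal markers moved with this result. Krt14, Krt17 and Krt5 fell in luminal TEBs by 3.27, 2.72 and 2.19 on the log2 scale (FDR = 0.0107, 0.0104 and 0.0454, edgeR), and the 4 basal markers summed to 36.7 and 71.0 CPM in luminal ducts and 6.32 to 12.1 CPM in luminal TEBs. As a share of the basal level in the same structure, luminal Acta2 was 1.06% in ducts and 0.221% in TEBs, Myh11 was 0.689% and 0.224%, and Mylk was 1.36% and 0.292%. The share of Krt5 was 0.84% and 0.907%, that of Krt14 was 0.684% and 0.513%, that of Krt17 was 1.34% and 0.783%, and that of Trp63 was 0.389% and 0.289%. In TEBs the mean shares of Acta2, Myh11 and Mylk were below those of the 3 keratins and close to that of Trp63, with no test. The share of Oxtr was 2.37% and 2.07%, and in the luminal libraries Oxtr held 25.5 to 35.8 counts per 100 Acta2 counts, above the 2.86 to 14.9 of the basal libraries. Cell cycle genes also moved in luminal cells, with sums of 578 and 598 CPM in ducts and 1324 to 1523 CPM in TEBs, where edgeR called 1 of 10 higher, DESeq2 7 and limma voom 4. The part of basal RNA or of cell cycling in the luminal levels was not tested.

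**Figure D4:**
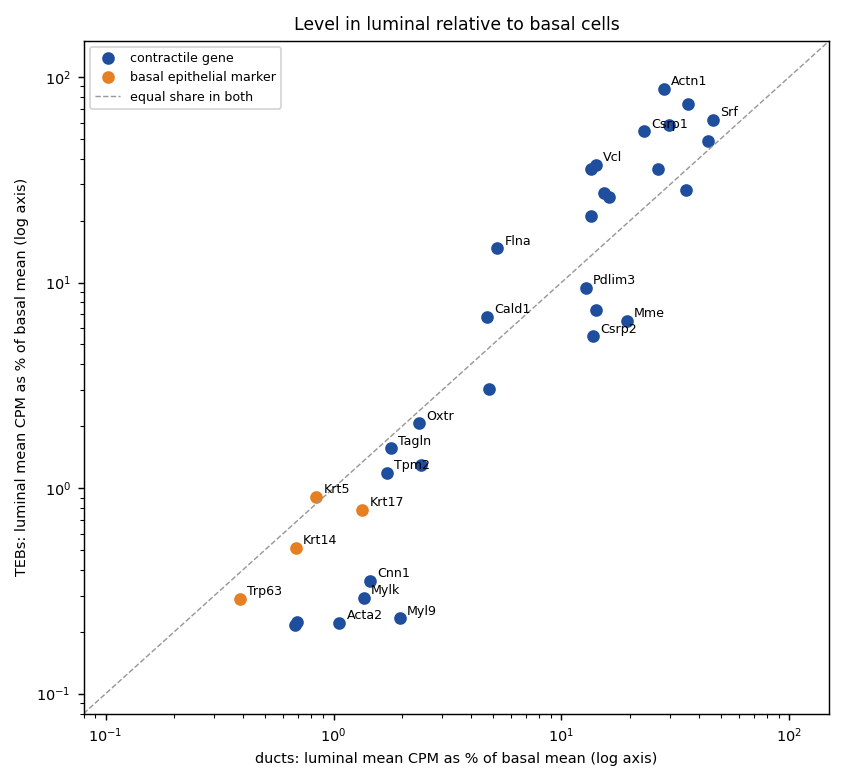
Mean level in luminal cells as a percent of the mean in basal cells, in ducts (horizontal) and in TEBs (vertical), on log axes, for 30 contractile genes (blue) and 4 basal epithelial markers (orange). The dashed line marks an equal share. Acta2 (1.06% and 0.221%), Myh11 (0.689% and 0.224%) and Mylk (1.36% and 0.292%) lie below it. Cald1 (4.7% and 6.8%), Smtn (13.5% and 35.8%) and Actn1 (28.1% and 87.7%) lie above it.

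The luminal comparison rests on 2 duct libraries, of which replicate 3 had the higher level of 10 of the 11 genes called and also had counts of immune and stromal genes (Ptprc, which encodes the CD45 used in the lineage gate, 26.5, Fabp4 75.1 and Col3a1 123 CPM, against 0.23, 0 and 0.05 CPM in replicate 1). Without it 6 of the genes were called lower, in a fit that takes the lone duct library to vary like the other groups, and 6 were without luminal TEB replicate 1 and 4 without luminal TEB replicate 3. Cnn1, Mylk, Lmod1 and Oxtr were called in all 11 fits with 1 library left out. Without both libraries of high mitochondrial share, 6 genes were called lower (Acta2, Cnn1, Lmod1, Myl9, Mylk and Oxtr) and Cnn2 and Flna were called higher, with a change of -1.76 for Myh11 (FDR = 0.0832). Under limma voom 1 gene, Acta2, was called lower, whereas DESeq2 and the likelihood ratio test each called 13 lower, with all 11 of the edgeR calls included. Over all genes tested, limma voom called 222 of 17370 lower, DESeq2 743 of 14819 and the likelihood ratio test 548 of 17370. For edgeR this was 134 of 17370.

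Among further smooth muscle genes in luminal cells, 3 of 21 fell in TEBs, namely Pgm5 (-3.74 ± 0.58, FDR = 0.0127, edgeR), Nexn (-3.22 ± 0.58, FDR = 0.0241) and Tgfb1i1 (-1.83 ± 0.38, FDR = 0.0414), which encode proteins of actin attachment sites. Cavin1, a protein of caveolae, rose by 1.06 ± 0.21 (FDR = 0.0362). DESeq2 called 7 of this list lower and limma voom 0. Mef2c, a muscle transcription factor, was the one called of 18 regulators (-5.07 ± 1.05, FDR = 0.0405), but its libraries overlapped, with 0.43 and 20.5 CPM in ducts and 0.20 to 0.44 CPM in TEBs. The lists of focal adhesion, calcium signalling, and non-muscle actin and myosin genes had no call by edgeR. At an unadjusted p below 0.05 they held 6 higher and 4 lower, 4 and 1, and 4 and 1 genes, and DESeq2 called 3 and 1, 1 and 0, and 0 and 1, while limma voom called 0 in each.

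The direct test of whether the change from duct to TEB differed between basal and luminal cells called 1 of the 33 genes lower and 0 higher, where 0.363% and 0.0806% of all genes tested were called. At an unadjusted p below 0.05, 7 genes were lower and 7 higher, and 4 were called higher by DESeq2 and 0 by limma voom. Over all genes tested, DESeq2 called 302 higher and 410 lower of 14510, and limma voom 15 and 80 of 17370. Vcl, which links talin at integrins to actin, had 105 and 84.9 CPM in luminal ducts and 146, 179 and 173 CPM in luminal TEBs, whereas its basal levels were lower in TEBs. Its luminal change was 0.81 ± 0.19 (FDR = 0.056, edgeR), and the basal minus luminal change was -1.40 ± 0.25 (FDR = 0.033). Reads of Vcl could be split with the overlapping gene Ap3m1, since 24.8% of its 80-base stretches were shared. Actn1, its partner on actin filaments, had a basal minus luminal change of -1.64 ± 0.31 that did not pass (FDR = 0.0505). The changes of Acta2 (2.26 ± 0.58, FDR = 0.128) and Myl9 (3.05 ± 0.75, FDR = 0.111) were toward a larger decrease in luminal cells but did not pass, and for Oxtr the difference was 0.20 ± 0.45 (FDR = 0.67).

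The call for Vcl was kept in 2 of 11 fits with 1 library left out, without basal TEB replicate 2 (FDR = 0.0199, edgeR) and without luminal duct replicate 1 (FDR = 0.0119), and in the other 9 the FDR lay between 0.0531 and 0.135. Without both libraries of high mitochondrial share it was -1.20 (FDR = 0.0592), and Cnn2, Flna and Smtn were called lower instead.

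Basal cells exceeded luminal cells in most of the genes, which is the labelled difference between the groups. In ducts, 28 of the 33 genes were higher in basal cells and 0 were lower, by edgeR, by DESeq2 or by limma voom, and none was lower at an unadjusted p below 0.05, where 12.6% of all genes tested were higher. In TEBs, 27 were higher and 0 lower, by any of these tools or at an unadjusted p below 0.05, against 13.2% of all genes higher. The medians were 2.89 and 3.41 on the log2 scale, against 0.08 and 0.04 over all genes. In ducts the 5 largest differences were those of Actg2 (7.22 ± 0.54), Myh11 (7.19 ± 0.81), Acta2 (6.56 ± 0.59), Mylk (6.21 ± 0.56) and Cnn1 (6.13 ± 0.61), with FDR values between 4.15e-06 and 5.84e-05. In TEBs they were those of Actg2 (8.84 ± 0.49), Acta2 (8.82 ± 0.54), Myh11 (8.80 ± 0.72), Myl9 (8.74 ± 0.68) and Mylk (8.42 ± 0.52), with FDR values between 3.07e-07 and 3.6e-06. The 2 comparisons share no library, but both come from the same fit over all 11 libraries, and whether their mice were shared is not given.

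The genes fell into grades by how far luminal cells shared them. Of 30 genes with a mean of at least 1 CPM in basal ducts, the luminal mean was under 5% of the basal mean for 12 genes in ducts and 11 in TEBs, from 5% to 20% for 10 and 6, and 20% or more for 8 and 13. The lowest grade in both structures held the smooth muscle actins, Myh11, Myl9, Mylk, Cnn1, Tagln, Tpm2, Lmod1, Oxtr and Synpo2. The highest grade included genes that serve actin in most cells, such as Myl6 (44.1% and 49.0%), Srf (46.2% and 62.0%) and Csrp1 (23.1% and 54.3%). In TEBs it also included the muscle genes Smtn (35.8%) and Des (26.2%, at scarce levels). For Actn1 the share was 28.1% in ducts and 87.7% in TEBs. In TEBs its basal and luminal levels did not differ by the test (0.19 ± 0.21, FDR = 0.555, edgeR), with 274, 354 and 291 CPM in basal cells and 276, 246 and 283.5 CPM in luminal cells. Lpp did not pass in TEBs either (0.44 ± 0.32, FDR = 0.363). Des, Myocd, Mylk3 and Itgb1bp2 passed in neither structure, and Ppp1r14a did not pass in ducts (2.82 ± 1.00, FDR = 0.0627).

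Neighbouring lists held genes called in both directions between the cell types. Of 17370 genes tested, 2191 were higher and 1687 lower in basal than luminal ducts, and 2298 and 2056 in TEBs. Calls near these shares were not read as a result about a list. In ducts, 16 of 23 focal adhesion genes and 16 of 21 further smooth muscle genes were higher in basal cells, with Palld (5.20 ± 0.49), Tgfb1i1 (5.91 ± 0.48) and Cavin1 (2.86 ± 0.23) among those of lowest FDR. Sorbs3, an adhesion adaptor, was lower in basal ducts (-1.88 ± 0.30, FDR = 0.000722). In TEBs 12 and 13 were higher, and Itgb4, Sorbs3 and Hspb1 were lower in basal cells. Non-muscle actin and myosin genes were called in both directions, 5 higher and 3 lower of 15 in ducts and 4 and 2 in TEBs. For calcium signalling, 5 were higher and 2 lower of 17 in ducts, and 4 and 5 in TEBs. Of the 18 regulators, 6 were higher and 1 lower in ducts, and 6 and 2 in TEBs.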

How the data were processed

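Bulk RNA-seq was performed by the authors on sorted cells, and the deposited values are whole, unnormalized read-pair counts per Entrez gene. Paired-end reads of 80 bp had been mapped to mm10 and assigned to genes by Rsubread with its own RefSeq annotation, and featureCounts is named in the submitters' processing notes. Strand setting and treatment of multi-mapped reads are not given in the sources used here. The per-sample tables equalled the columns of the series table for 11 of 11 libraries, and 0 columns were unused. The authors left out a luminal duct sample that held few cells. Of 27179 identifiers, 25275 (93.0%) had a symbol.

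The filterByExpr function (count 10, total 15) kept 17370 genes with 99.964% or more of every library's counts, and TMM factors were applied. The quasi-likelihood test of edgeR 4.0.16 (R 4.3.3) was fitted in one model over 4 groups, with Benjamini-Hochberg adjustment over all genes tested at 0.05 and 5 comparisons. Each SE was taken as the size of the log2 fold change over the square root of F. The biological coefficient of variation shared by all genes was 0.704. Replicates may share sources of variation that the labels do not give, and p-values measure the spread between these samples. The members and lists were chosen with earlier results of these data known. Values in every library are given for 15 genes fixed by name (Acta2, Actg2, Myh11, Myl9, Mylk, Cnn1, Tagln, Tpm2, Cald1, Lmod1, Des, Oxtr, Mme, Myocd and Srf) and for each other member called between TEB and duct or in the interaction, 21 in all. Elsewhere the members called and the 5 largest changes are named, and at most 3 genes of each other list, apart from the pericyte markers. One further list is not reported here. Promoters were RefSeq sequences of GRCm38.p6. Alternatives were DESeq2 1.42.0 (size factors, and its Wald test), no composition normalization, no filter, the likelihood ratio test, limma voom (limma 3.58.1), the replicate number as a block, and omission of single libraries. Added after seeing the data were leaving out both libraries of high mitochondrial share, removing mitochondrial genes, and a CArG box with a changed core base. Scripts were tested on simulated counts.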

Additional observations from a re-analysis of the deposited data

Results flagged for a closer look

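Vcl, vinculin, was the one contractile gene whose change from duct to TEB differed between basal and luminal cells by the test of the difference (basal minus luminal change -1.40 on the log2 scale, FDR = 0.033, edgeR with Benjamini-Hochberg adjustment). It was lower in 3 of 3 basal TEB libraries than in any basal duct library and higher in 3 of 3 luminal TEB libraries than in either luminal duct library. The value lay between -1.89 and -1.20 over 21 fits, of which 9 called it. No group had more than 3 libraries, so single libraries were not tested as outliers.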

How the results depend on the processing

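The direction was kept under each alternative run for the genes given values in every library, other than Myocd, in the basal comparison. It was also kept for the 5 largest changes called in each other comparison (Vcl alone in the interaction). Some luminal changes that did not pass were reversed without luminal duct replicate 3, such as Pdlim7 (-0.18 to 0.69), Cald1 (-0.08 to 0.55) and Lpp (0.38 to -0.12). Without composition normalization, basal calls were 0 higher and 1 lower, luminal calls 1 lower and interaction calls 0 lower, and the median of all genes moved to -0.16 in basal and 0.42 in luminal cells. The likelihood ratio test called 14 basal genes lower, 1 luminal gene higher, and 3 higher and 5 lower in the interaction. Of all 17370 genes tested it called 496 lower in basal cells, 458 higher in luminal cells, and 260 higher and 369 lower in the interaction. DESeq2 called 16 basal genes lower, 2 luminal genes higher, and 4 higher and 6 lower in the interaction. Limma voom called 16 basal genes lower, 1 luminal gene higher, 1 luminal gene lower and 3 interaction genes lower. The interaction had 2 genes lower with DESeq2 size factors and 2 without a filter. Without both libraries of high mitochondrial share, 2 luminal genes were higher and 6 lower, and 3 were lower in the interaction. With 1 library left out, calls ranged from 0 to 1 higher and 1 to 11 lower in basal cells, from 0 to 1 higher and 4 to 13 lower in luminal cells, from 26 to 29 higher in basal than luminal ducts and 24 to 27 in TEBs, and from 0 to 4 higher and 0 to 4 lower in the interaction. Causes were not tested. Basal fold changes that did not pass in the main test had an FDR below 0.05 in 32 gene and alternative pairs, and those that did lost it in 46.

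The replicate numbers were shared across groups, and whether they mark a shared source is not given in the labels. Correlations of deviations over 15 same-numbered pairs lay between -0.068 and 0.163, 4 of them above 0.1. Those of different-numbered pairs lay between -0.163 and 0.137, and 7 of 11 libraries correlated best with their own number. The 2 luminal duct libraries have equal and opposite deviations from their mean, so each of their correlations recurs with the other sign. The values 0.163, -0.163 and 0.137 come from such pairs, and the ranges are not independent. Whether the numbers mark pairs was not settled by these values, and pairing was left out of the main test. With the replicate number as a block, 6 basal and 8 luminal genes were called lower and 0 in the interaction. Of the calls above, Actn1 and Tagln in basal cells, Mme, Myh11 and Tagln in luminal cells and Vcl in the interaction were then not made, and Cnn1 was added in basal cells. Depth limits the low genes, with 3 counts standing for 0.0571 to 0.173 CPM.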
